A study of Mus musculus with 2 samples.

Results

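The transcripts described here are 10 genes by which monocytes and tissue macrophages are commonly recognised: Cx3cr1, Ccr2, Adgre1, C1qa, C1qb, C1qc, Dab2, Mrc1, Marco and Msr1. They were chosen by symbol, with earlier results of these data known, and all 10 were rows of both count tables, out of 32544 genes. They were followed by single-cell mRNA sequencing (scRNA-Seq) in a control culture and in a LysM-Cre;Arid1afl/fl culture of bone marrow-derived monocytes (BMDMs), called the control and the mutant library. Both cultures were kept in M-CSF at 50 ng/ml with RANKL at 100 ng/ml, the cytokines that turn such cells into osteoclasts (OCs), and were collected 24 h after RANKL per the study's methods, which give marrow donors of 4 to 6 weeks. LysM-Cre is expressed from the Lyz2 locus, which is active across myeloid cells including neutrophils, and it deletes the floxed stretch of Arid1a, whose protein belongs to the BAF complexes that remodel chromatin. The alleles of the control are given as "CONTROL" only, and the number of animals behind each library was not stated. Each genotype is 1 library, so no test across samples was possible, no p-value is given, and genotype and library cannot be told apart.

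Monocytes leave the bone marrow and settle in tissues as macrophages, and on the way they exchange migration receptors for receptors that take up debris, lipoproteins and microbes. CX3CR1 and CCR2 are chemokine receptors of circulating monocytes, ADGRE1 is the surface protein that carries the classical mouse macrophage antigen, and C1QA, C1QB and C1QC are the chains of complement C1q, which macrophages themselves secrete. DAB2 is an endocytic adaptor, and MRC1, MARCO and MSR1 are receptors for mannosylated ligands or for modified lipoproteins and bacteria. OCs share the M-CSF dependent precursor with macrophages, and macrophage transcripts are known to decline as precursors commit to bone resorption.

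After cells with fewer than 500 genes or more than 10% mitochondrial unique molecular identifiers (UMIs) were left out, 6269 cells remained in the control (163618835 UMIs in all) and 5663 in the mutant library (131469887 UMIs). Their medians were 23978 and 21734 UMIs per cell, and 8 barcodes occurred in both libraries. Levels are UMIs summed over cells per 1e6 UMIs (CPM), with 95% exact Poisson intervals, and ratios carry exact conditional 95% intervals. These cover counting error only, not the spread between cells or cultures, and a level counts molecules at the 3′ end, so levels are compared within a gene. Summed over a library, fewer cells with a transcript and less transcript per cell cannot be told apart, and shares of cells are therefore given beside the levels. Arid1a itself stood at 51.9 CPM in the control and 20.4 CPM in the mutant library. Its 3′ counts need not lie in the deleted part, so they are no full check of the deletion. Markers of monocytes and macrophages were found in both cultures, at unlike shares of cells. Csf1r, the M-CSF receptor, had a UMI in 68.8% of control and 80.9% of mutant cells at 5000 UMIs per cell, and Cd68 in 85.2% and 88.3%. The others were found in fewer control cells: Lgmn in 44.2% and 86.3%, Adgre1 in 46.4% and 86.6%, Itgam in 46.2% and 71.6%, and Fcgr1 in 10.7% and 40.0%. All 4 neutrophil markers were higher in the mutant library, from Camp (11.95 against 73.8 CPM) to S100a8 (111 against 880 CPM). At least 5% of the UMIs came from S100a8, S100a9, Ngp and Camp in 17 control and 83 mutant cells, which form the neutrophil gate. Cells with at least 10 of 5000 UMIs from MHC class II genes numbered 8 and 58, and cells with at least 3 collagen UMIs numbered 3 in each library (Col1a1 at 1.15 and 3.13 CPM). Values without all of these cells are given where they matter.

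To read the genes by state, each cell was thinned at random to 5000 UMIs. Cells entered the OC gate when Ctsk, Mmp9, Acp5 and Dcstamp, transcripts of bone resorption and cell fusion, summed to 3 UMIs or more. They entered the cycling gate when Mki67, Top2a, Aurka and Cdk1, transcripts of cell division, did so. In the control library 3358 cells (55.0%) were in neither gate, 2156 (35.3%) in the cycling gate only, 342 (5.61%) in the OC gate only and 245 (4.02%) in both. In the mutant library these were 3401 (64.0%), 1734 (32.6%), 123 (2.32%) and 54 cells (1.02%).

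In GRCm39 the C1q genes sit side by side on the minus strand of chromosome 4, with C1qb at chr4:136606009-136613511, C1qc at chr4:136616466-136620376 and C1qa at chr4:136623223-136626161. Their span of 20.2 kb holds no other protein-coding gene. Cx3cr1 (chr9:119877749-119898945, minus strand) and Ccr2 (chr9:123901982-123913594, plus strand) lie 4003 kb apart on chromosome 9. Adgre1 is at chr17:57665573-57790527 and Dab2 at chr15:6329269-6470196. Mrc1 is at chr2:14234151-14336926, Marco at chr1:120402267-120432753 and Msr1 at chr8:40034726-40095714. Annotated genes of the opposite strand overlap Cx3cr1, C1qb, C1qc, Dab2 and Msr1, and whether counting used the strand was not stated, so counts of these 5 genes could hold reads of their partners. On the same strand, Gm63092 overlaps Dab2 and Mir511 overlaps Mrc1.

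Of all pairs of members the 3 C1q genes had the highest correlations across cells, so the 250 bases upstream of their annotated starts are shown. They were read from the GRCm39 genome at the canonical GENCODE M39 starts, run 5′ to 3′ in the direction of transcription, and carry matches to any of 4 searched motifs in capitals.
C1qa (chr4:136626162-136626411, minus strand): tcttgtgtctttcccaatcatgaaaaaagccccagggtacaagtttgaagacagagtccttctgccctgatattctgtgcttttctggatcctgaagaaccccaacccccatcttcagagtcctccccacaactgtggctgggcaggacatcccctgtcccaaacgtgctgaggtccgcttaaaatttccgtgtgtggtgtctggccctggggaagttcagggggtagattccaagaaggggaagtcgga
C1qb (chr4:136613512-136613761, minus strand): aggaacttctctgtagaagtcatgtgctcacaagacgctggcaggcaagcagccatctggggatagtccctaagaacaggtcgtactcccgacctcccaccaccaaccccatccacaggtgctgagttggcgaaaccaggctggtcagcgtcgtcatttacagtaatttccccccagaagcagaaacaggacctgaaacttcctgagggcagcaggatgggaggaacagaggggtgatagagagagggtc
C1qc (chr4:136620377-136620626, minus strand): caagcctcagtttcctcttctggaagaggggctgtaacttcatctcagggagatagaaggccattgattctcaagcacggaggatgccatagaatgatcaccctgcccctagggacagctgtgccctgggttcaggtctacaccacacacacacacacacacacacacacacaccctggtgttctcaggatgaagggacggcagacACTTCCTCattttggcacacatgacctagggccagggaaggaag
The motifs, searched on both strands, were GAGGAAGT (bound by PU.1), TGCTGAC (a MAF half-site), TGANTCA (AP-1) and GAAANNGAA (a spaced interferon-response-like repeat). The capitals in C1qc mark a PU.1 match on the strand opposite to transcription, from base -44 to base -37 before the start. No other match lay in these windows. Over the 10 members, the PU.1 letters occurred in 1 window, the GAAANNGAA letters in 3 (Ccr2, Adgre1 and Msr1), and the other letters in 0. Of 21603 windows of all protein-coding genes, 2.10% held the PU.1 letters, 3.26% the MAF half-site, 6.15% the AP-1 letters and 7.60% the GAAANNGAA letters. The C1q windows had 52.4% to 55.2% G and C against a median of 53.2% over all windows. A match is a description of letters, and its absence from a window says nothing of the factor.

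Across all cells, 9 of the 10 genes reached a mean of 20 CPM over the 2 libraries (Ccr2 did not). Of these, 2 were higher in the mutant library by 2-fold or more, Cx3cr1 and Adgre1, and 0 were lower. Among all 5219 genes with that mean, 5.65% were higher and 1.13% were lower by 2-fold or more. When totals left out mitochondrial and ribosomal protein transcripts these became 4.59% and 1.71%, and the median log2 ratio over all genes moved from 0.022 to -0.081, with the same 2 and 0 counts for the members. The median over the 9 members was 0.35, and they went both ways: the intervals of 5 lay above 0, those of C1qa, C1qb and C1qc lay below 0, and that of Mrc1 spanned it.

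**Figure D1:**
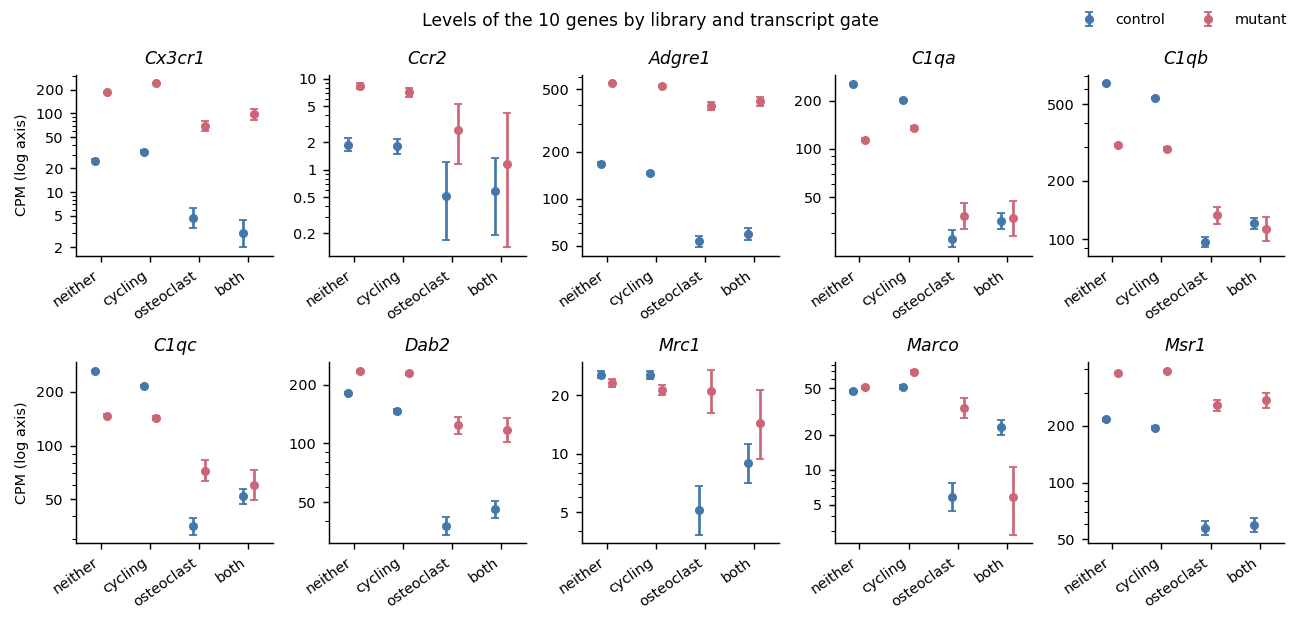
Levels of the 10 genes (CPM, log axis, a scale of its own for each gene) in cells of neither gate, the cycling gate only, the OC gate only and both gates, for the control (blue) and the mutant library (red). Points are sums over cells and bars are 95% exact Poisson intervals, and in the control the levels in the OC gate only lie below those in neither gate for all 10 genes.

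Cx3cr1, the fractalkine receptor, stood at 25.5 CPM in the control (interval 24.8 to 26.3) and 201 CPM in the mutant library (198 to 203). The intervals did not overlap, and the log2 ratio was 2.98 (2.93 to 3.02). At 5000 UMIs per cell, 9.60% of control cells and 47.0% of mutant cells had a Cx3cr1 UMI, against 0 of 15 (which allows up to 20%) and 5.71% of 70 cells in the neutrophil gate. The control share could not be told from that background with so few cells. Median depths before thinning were 24266 and 22412 UMIs in the 2 libraries and 7523 and 10766 UMIs in the neutrophil gate. More mutant cells carried the transcript, and the highest control cell had 8 and the highest mutant cell 12 of 5000 UMIs. Within cells of neither gate Cx3cr1 was at 25.1 and 185 CPM, and within the cycling gate only at 32.4 and 240 CPM, so the ratio was nearly the same (2.88 and 2.89).

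Ccr2, the receptor through which inflammatory monocytes leave the marrow, was scarce. It stood at 1.72 CPM in the control (282 UMIs) and 7.90 CPM in the mutant library (1039 UMIs), a log2 ratio of 2.20 (2.01 to 2.39). A Ccr2 UMI was found in 0.803% of control cells and 2.96% of mutant cells. In the neutrophil gate it was found in 0 of 15 control cells (which allows up to 20%) and 1 of 70 mutant cells (1.43%). With so few gated cells neither share could be told from that background. The Ccr2 UMIs were concentrated: in the 58 mutant cells with many class II transcripts Ccr2 reached 137 CPM, from 141 UMIs, against 6.89 CPM in cells outside the class II, neutrophil and stromal gates. Without all 3 gates the log2 ratio was 2.02 (1.82 to 2.21), which lay within the interval of the ratio over all cells. The 157 mutant cells with a Ccr2 UMI also held 491 CPM of Plac8 and 182 CPM of Ly6c2, genes of inflammatory monocytes, where mutant cells without one held 29.95 and 18.3 CPM. Of these 157 cells 17 were in the class II gate, and this comparison was not made without the gated cells. Over the whole mutant library Ly6c2 was at 22.9 CPM with them and 7.85 CPM without them. The 49 control cells with a Ccr2 UMI held 31.4 CPM of Plac8 and 77.3 CPM of Ly6c2, against 1.45 and 2.01 CPM. In the mutant library cells with a Ccr2 UMI were low in C1qa (50.4 against 120 CPM) and Mrc1 (8.67 against 22.7 CPM), whereas in the control C1qa was at 214 against 209 CPM, with overlapping intervals.

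Adgre1 stood at 147 CPM in the control (145 to 149) and 534 CPM in the mutant library (530 to 538), a log2 ratio of 1.86 (1.84 to 1.89). A UMI was found in 46.4% of control and 86.6% of mutant cells at equal depth, and in 6.67% of 15 and 25.7% of 70 cells of the neutrophil gate. The mutant median was 2 of 5000 UMIs and the control median 0. Adgre1 was higher in the mutant library in each state, from 168 to 547 CPM in neither gate, from 146 to 525 CPM in cycling cells, from 53.2 to 392 CPM in the OC gate only and from 59.0 to 419 CPM in both gates.

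The 3 C1q genes went the other way. C1qa stood at 210 CPM in the control and 118 CPM in the mutant library, a log2 ratio of -0.82 (-0.85 to -0.80). C1qb stood at 541 and 295 CPM, with a ratio of -0.88 (-0.89 to -0.86), and C1qc at 220 and 142 CPM, with a ratio of -0.63 (-0.65 to -0.60). In cells of neither gate the ratios were -1.16 for C1qa, -1.06 for C1qb and -0.83 for C1qc, and with cells thinned to 2000 UMIs they were -0.97, -0.96 and -0.72. At equal depth a C1qa UMI was found in 33.3% of control and 20.5% of mutant cells, C1qb in 62.9% and 42.7%, and C1qc in 44.0% and 31.9%. In the neutrophil gate of the mutant library C1qa was in 0 of 70 cells (which allows up to 4.29%), C1qb in 11.4% and C1qc in 5.71%.

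C1q UMIs were unevenly spread over cells, and cells rich in them were fewer in the mutant library. With the 3 genes summed, 31.0% of control and 49.1% of mutant cells had 0 of 5000 UMIs, while 19.1% and 8.94% had at least 10. The variance across cells was 9.85 and 10.8 times the mean, and the top 10% of cells held 43.3% and 57.5% of all C1q UMIs. Among the 1166 control and 475 mutant cells with at least 10 C1q UMIs, C1qa was at 813 and 879 CPM, C1qb at 1642 and 1521 CPM and C1qc at 706 and 756 CPM. These levels follow from the choice of cells by the same UMIs and describe the group only.

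Dab2 stood at 152 CPM in the control and 228 CPM in the mutant library, a log2 ratio of 0.58 (0.56 to 0.61) that stayed under 2-fold. A UMI was in 46.3% of control and 61.7% of mutant cells, beside 0 of 15 and 5.71% of 70 cells of the neutrophil gate. In neither gate the ratio was 0.37 and in the cycling gate only 0.64.

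Among the scavenger and mannose receptors, Msr1, the class A scavenger receptor, stood at 191 CPM in the control and 381 CPM in the mutant library. Its log2 ratio of 0.998 (0.98 to 1.02) lay just under the 2-fold line, its interval crossed that line, and without the class II, neutrophil and stromal gates the ratio was 1.01. A UMI was in 53.5% of control and 76.0% of mutant cells and in 0 of 15 and 12.9% of 70 neutrophil-gate cells. Mrc1, the mannose receptor, was at 23.5 CPM (22.8 to 24.3) and 22.6 CPM (21.8 to 23.4), and the interval of its log2 ratio of -0.057 (-0.13 to 0.012) spanned 0. Mrc1 UMIs were in 9.75% and 8.72% of cells, beside 6.67% of 15 and 0 of 70 cells of the neutrophil gate, so the control share could not be told from that background with so few cells. Marco, a class A receptor for bacteria and particles, was at 45.1 and 57.3 CPM, a ratio of 0.35 (0.30 to 0.39). Within neither gate the Marco ratio was 0.11 and changed sign with the depth of thinning, from 0.34 at 2000 to -0.47 at 10000 UMIs.

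Marco was the most unevenly distributed member. Only 7.43% of control and 6.21% of mutant cells had a UMI at 5000 (0 of 15 and 1.43% of 70 in the neutrophil gate). With so few gated cells neither share could be told from that background. Single cells still reached 36 and 48, and the variance was 7.08 and 13.2 times the mean. For Msr1, found in most cells, that ratio was 1.57 and 1.58. The higher mutant level of Marco thus sat beside a slightly lower share of cells with it, and its counting intervals are narrower than the spread between cells would allow.

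**Figure D2:**
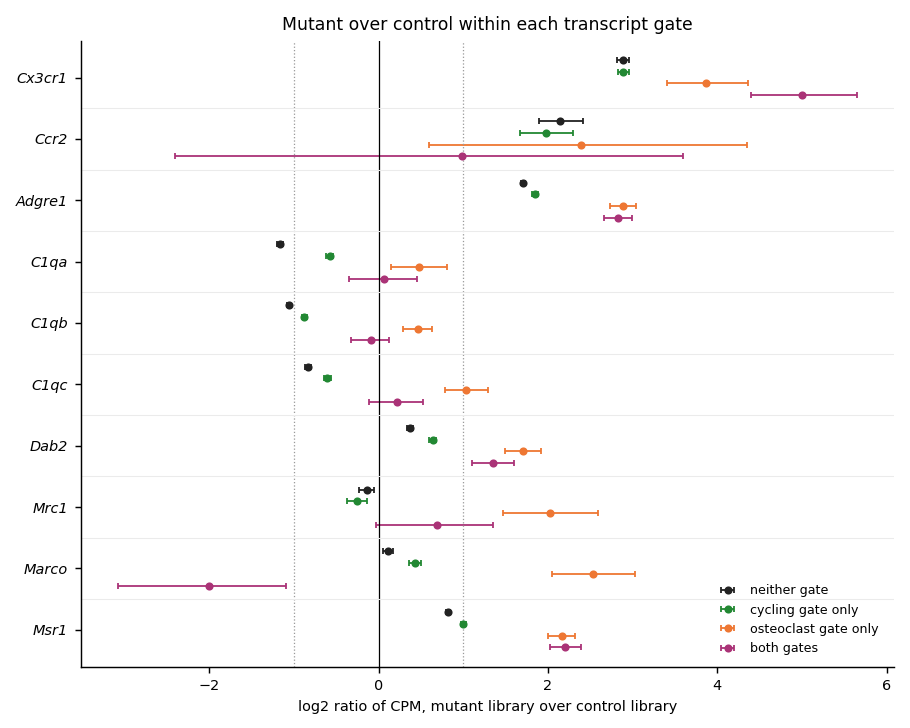
Log2 ratio of CPM, mutant over control library, for each of the 10 genes within cells of neither gate (black), the cycling gate only (green), the OC gate only (orange) and both gates (purple). Bars are exact conditional 95% intervals and dotted lines mark 2-fold, and the orange points lie to the right of the black ones for all 10 genes.

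Weighting the states alike changed the ratios little. When the mutant levels of each state were weighted with the control's share of UMIs per state, the log2 ratio of Cx3cr1 went from 2.98 to 2.93, that of Adgre1 from 1.86 to 1.83, that of C1qb from -0.88 to -0.95 and that of Msr1 from 0.998 to 0.97. The whole set was also read per cell. Of the 10 genes a median of 3 was detected per control cell and 4 per mutant cell at 5000 UMIs, and 11.5% of control cells but 2.13% of mutant cells had a UMI of none of them. Single genes did not all go this way. Shares of cells were higher in the mutant library for Cx3cr1, Ccr2, Adgre1, Dab2 and Msr1, and lower for the C1q genes, Mrc1 and Marco.

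Within the control library, cells of the OC gate held little of any member. Of the 7 members that reached a mean of 20 CPM over the 2 states, all 7 were lower by 2-fold or more in the OC gate only than in neither gate, where 4.72% of 4938 genes were. The count of members higher was 0, against 1.58% of all genes. C1qa went from 255 to 27.5 CPM (log2 ratio -3.21), C1qb from 639 to 96.6 CPM (-2.72) and C1qc from 261 to 35.3 CPM (-2.89). Marco went from 47.2 to 5.90 CPM (-3.00), Dab2 from 181 to 37.9 CPM (-2.26), Msr1 from 217 to 57.5 CPM (-1.91) and Adgre1 from 168 to 53.2 CPM (-1.66). Of the 7, Marco passed the minimum mean only through cells of neither gate, which favours its call as lower. Cx3cr1 (25.1 to 4.76 CPM), Mrc1 (25.6 to 5.17 CPM) and Ccr2 (1.90 to 0.52 CPM, from 5 UMIs) were under the minimum mean. The intervals of these 3 ratios also lay below 0. The C1qb level in these cells was above that of the control neutrophil gate (39.8 CPM, interval 14.6 to 86.6), with no overlap of the intervals. A UMI of none of the 10 genes was found in 47.7% of these cells, against 7.92% in neither gate.

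In the mutant library the same contrast was smaller. Of 9 members with the minimum mean, 4 were lower by 2-fold or more, Cx3cr1 and the 3 C1q genes, where 0.329% of 5168 genes were, and 0 were higher, against 0.735%. Cx3cr1 went from 185 to 69.7 CPM (-1.41), C1qa from 114 to 38.4 CPM (-1.57), C1qb from 306 to 133 CPM (-1.20) and C1qc from 147 to 72.4 CPM (-1.02). Adgre1 went from 547 to 392 CPM (-0.48), Msr1 from 382 to 257 CPM (-0.57), Dab2 from 234 to 123 CPM (-0.92) and Marco from 51.0 to 34.0 CPM (-0.58). Mrc1 went from 23.2 to 21.1 CPM, with an interval of the ratio (-0.53 to 0.23) that spanned 0. The median ratio was -0.92 over the 9 mutant members and -2.72 over the 7 control members, beside 0.024 and 0.094 over all genes.

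The gate itself held different cells in the 2 libraries. Gated control cells had a median of 5 OC UMIs of 5000 and gated mutant cells 3. Mmp9 was at 385 and 102 CPM, Ctsk at 440 and 197 CPM, Dcstamp at 79.6 and 29.9 CPM and Acp5 at 787 and 676 CPM in them, so Acp5 made up more of the gated signal in the mutant library. With the gates at 5 UMIs, which left 254 control and 54 mutant cells in the OC gate only, 8 of 8 members past the minimum mean were lower by 2-fold or more in the mutant library, where 3.40% of all genes were. With Acp5 left out of the gate (32 mutant cells), an alternative chosen after the data were seen, 8 of 8 were, beside 3.03% of all genes. The control count was 7 of 7 under both, beside 5.11% and 4.73% of all genes. The part of the gate's makeup in the smaller mutant contrast was not tested.

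**Figure D3:**
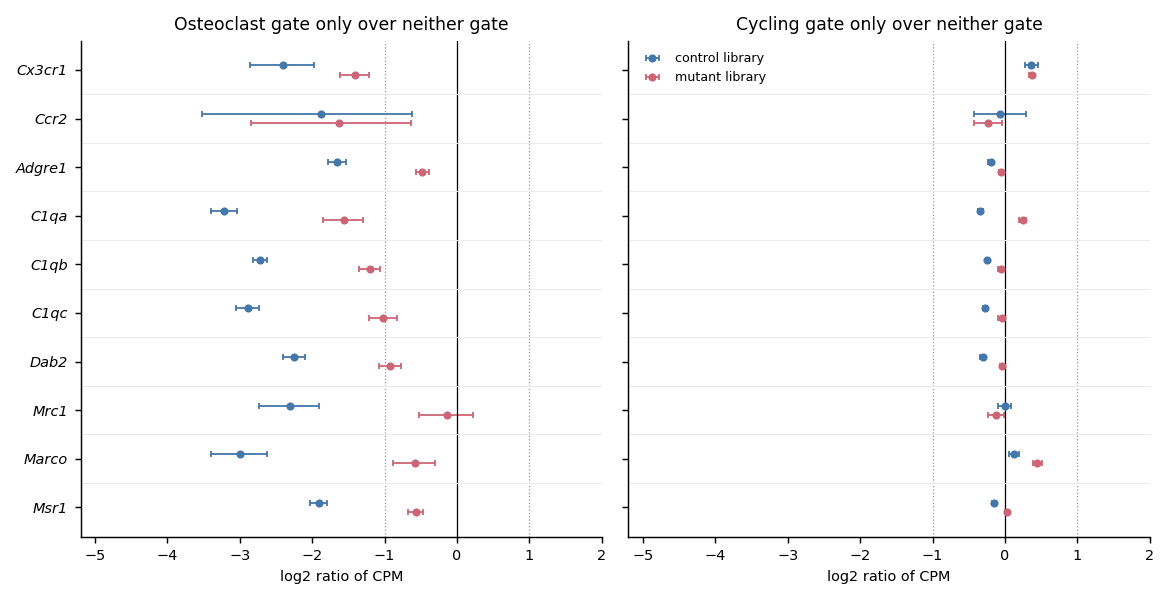
Log2 ratio of CPM of OC-gate-only cells (left) and of cycling-gate-only cells (right) over cells of neither gate, for the control (blue) and the mutant library (red). Bars are exact conditional 95% intervals and dotted lines mark 2-fold, and on the left all 10 control points lie below -1.6 while on the right all points lie within 2-fold.

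Set side by side within the OC gate only, the mutant cells held more of Cx3cr1 (69.7 against 4.76 CPM, log2 ratio 3.87), Adgre1 (392 against 53.2 CPM, 2.88), Msr1 (257 against 57.5 CPM, 2.16) and Dab2 (123 against 37.9 CPM, 1.70). These 4 kept that direction under all 8 other settings tried, with ratios of 2.89 to 3.99 for Cx3cr1, 1.90 to 3.12 for Adgre1, 1.21 to 2.57 for Msr1 and 0.78 to 2.06 for Dab2. The C1q genes, lower in the mutant library in neither gate and in the cycling gate only, were higher here: C1qa was at 38.4 against 27.5 CPM (0.48), C1qb at 133 against 96.6 CPM (0.46) and C1qc at 72.4 against 35.3 CPM (1.04). That did not hold under every setting. With the gates at 5 UMIs C1qb was at -0.35, whereas with doublets removed C1qb was at 1.11. C1qa was at -1.77 without Acp5 in the gate and at -2.15 with cells thinned to 2000 UMIs. Mrc1 (2.03) and Marco (2.53) turned to -0.63 and -0.30 without Acp5. Of the 62 mutant Mrc1 UMIs in this gate 23 came from 1 cell, and of the 100 mutant Marco UMIs 35 did.

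In cells of both gates Cx3cr1 was at 3.04 CPM in the control and 97.4 CPM in the mutant library (26 and 168 UMIs), and Msr1 at 59.5 and 275 CPM. The intervals of the ratios of C1qa, C1qb, C1qc, Mrc1 and Ccr2 spanned 0. Marco was lower in the mutant library, at 5.80 against 23.2 CPM, but 110 of its 198 control UMIs came from 1 cell and 8 of its 10 mutant UMIs from another.

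Between the cycling gate only and neither gate the members differed by less than 2-fold, as did most genes. In the cycling gate only against neither gate, 0 of 9 members passed 2-fold in either direction in the control library, where 1.98% of 5052 genes were higher and 0.0396% lower, and 0 of 9 in the mutant library, where 3.01% of 5344 genes were higher and 0.112% lower. Cx3cr1 was higher in cycling cells by a like amount in both libraries, from 25.1 to 32.4 CPM in the control (0.37, interval 0.28 to 0.46) and from 185 to 240 CPM in the mutant library (0.37, interval 0.34 to 0.41). In the control the C1q genes, Dab2, Adgre1 and Msr1 were lower in cycling cells, with log2 ratios of -0.34 to -0.15. In the mutant library C1qa was higher by 0.24 (114 to 135 CPM), and C1qb, C1qc, Dab2 and Adgre1 lay between -0.061 and -0.037. Marco was higher in cycling cells by 0.12 and 0.45, but other depths or gate thresholds turned both signs.

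**Figure D4:**
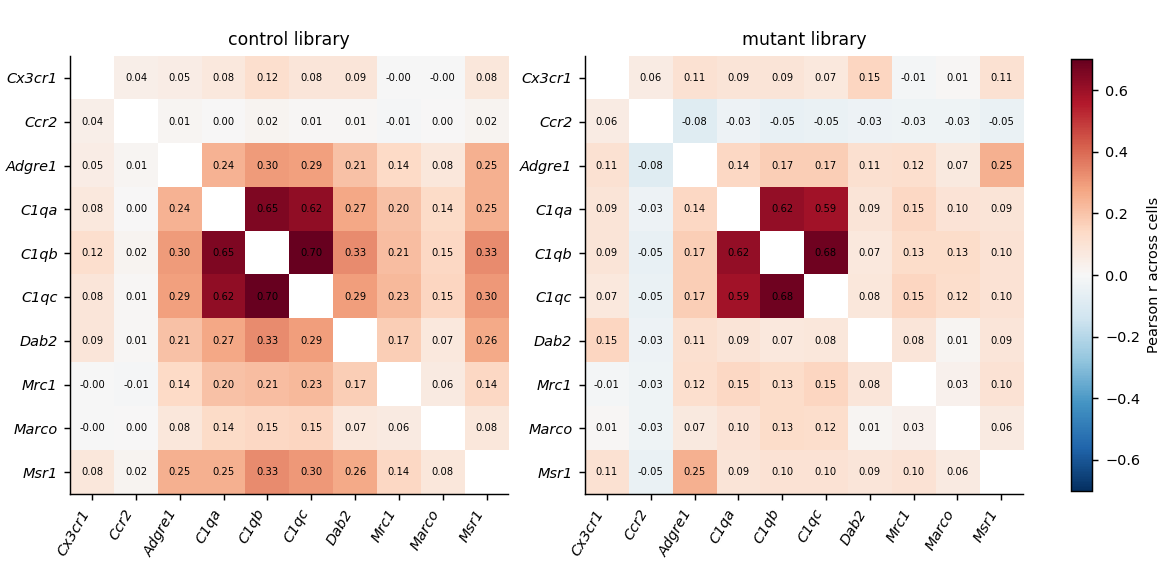
Pearson r between the 10 genes across cells, on log(1 + UMIs) with every cell thinned to 5000 UMIs, in 6101 control cells (left) and 5312 mutant cells (right). Each square is a pair of genes, and the dark block in each panel is the 3 C1q genes, with r between 0.59 and 0.70.

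To see which members moved together, Pearson r was computed across cells on log(1 + UMIs) at 5000 UMIs, as a description, since cells of a library share its preparation and sparse counts pull r towards 0. Of 45 pairs, 18 reached an r of 0.2 in the control library (6101 cells) and 4 in the mutant library (5312 cells), and those 4 were among the 18. The share among pairs of all genes was not computed, so these counts are not set against a background. They also depend on depth. At 10000 UMIs further pairs passed 0.2, such as Adgre1 with C1qb (0.21) and C1qc (0.23) in the mutant library and Adgre1 with Mrc1 (0.22) in the control. C1qb and C1qc were closest (0.70 and 0.68), followed by C1qa and C1qb (0.65 and 0.62) and C1qa and C1qc (0.62 and 0.59). Adgre1 and Msr1 were the fourth (0.25 in both). In the control, C1qb also went with Dab2 (0.33), Msr1 (0.33) and Adgre1 (0.30), pairs that stood at 0.073, 0.099 and 0.17 in the mutant library. Cx3cr1 and Ccr2 stayed at or below 0.15 in r with every member in both libraries, and Ccr2 was slightly negative with 8 of the others in the mutant library, the lowest being Adgre1 at -0.085. The 4 pairs kept an r above 0.2 in cells of neither gate alone, at 10000 UMIs per cell, and without the class II, neutrophil and stromal gates.

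**Figure D5:**
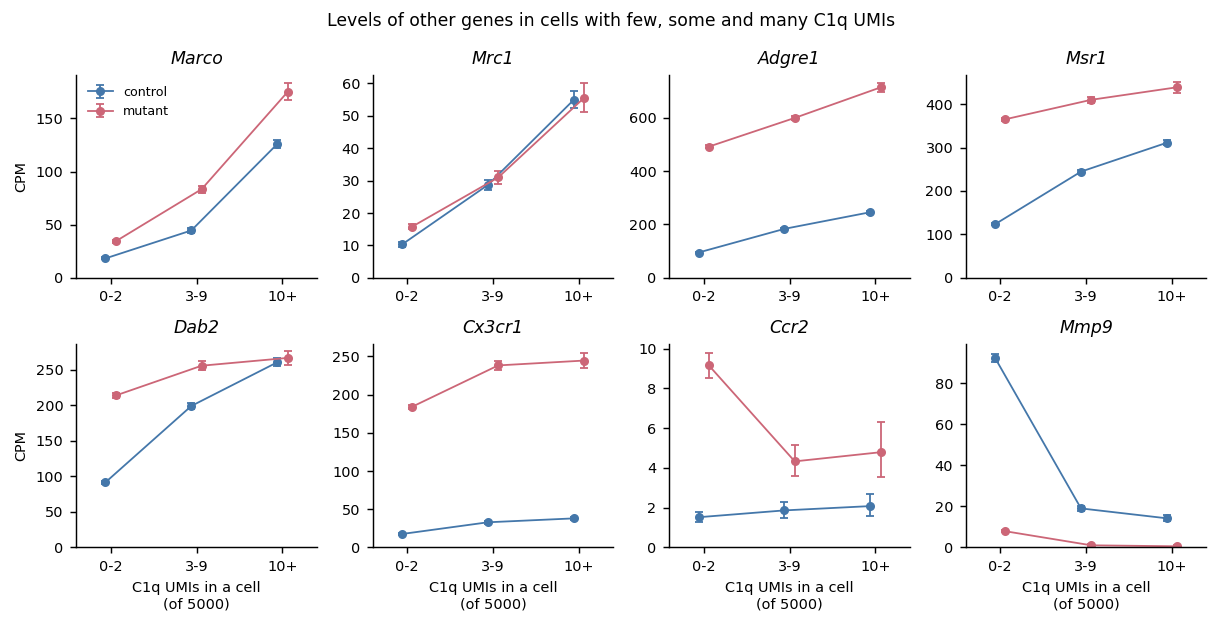
Levels (CPM, axes from 0) of 7 members and of Mmp9 in cells with 0 to 2, 3 to 9 and at least 10 C1q UMIs of 5000, for the control (blue) and the mutant library (red). Points are sums over cells with 95% exact Poisson intervals, and the Mrc1 points of the 2 libraries have overlapping intervals in the upper groups but not in the lowest (10.3 and 15.8 CPM), while those of Adgre1 and Cx3cr1 lie apart.

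Sorting cells by C1q UMIs showed the same in levels. From cells with 0 to 2 C1q UMIs, through 3 to 9, to at least 10, control Marco went from 18.3 to 44.6 to 126 CPM and mutant Marco from 34.4 to 83.4 to 175 CPM. Mrc1 went from 10.3 to 28.7 to 55.0 CPM in the control and from 15.8 to 31.0 to 55.6 CPM in the mutant library. At a given C1q content Mrc1 was thus alike in the 2 libraries in the upper groups, with overlapping intervals, and so was Dab2 in the highest group (261 and 267 CPM), while in the lowest group Dab2 was at 91.7 and 214 CPM. Adgre1 went from 94.8 to 246 CPM in the control and from 492 to 714 CPM in the mutant library, and Msr1 from 123 to 311 CPM and from 365 to 439 CPM, so that for these genes every mutant group lay above every control group. Cx3cr1 went from 17.6 to 38.1 CPM and from 184 to 245 CPM. Ccr2 ran the other way in the mutant library, from 9.15 CPM in the lowest to 4.79 CPM in the highest group, and in the control its intervals overlapped (1.52 and 2.08 CPM). In the control, Mmp9 went from 92.4 CPM in the lowest to 14.2 CPM in the highest C1q group, and Ctsk from 88.7 to 9.05 CPM. Acp5 and Dcstamp are not given here for these groups.

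Outside the set, the genes most like the C1q sum in both libraries, over 5210 candidate genes past the minimum mean, were Ms4a7 (r of 0.49 for control and 0.30 for mutant cells), Psap (0.45 and 0.27) and Ctsd (0.55 and 0.27). Ms4a7 encodes a membrane protein of macrophages, and Psap and Ctsd encode lysosomal proteins. For Mrc1 they were Psap (0.24 and 0.25), Ctsb (0.21 and 0.21) and Ctsd (0.23 and 0.20), and for Msr1 Ctsd (0.41 and 0.34), Ctsb (0.39 and 0.33) and the peroxiredoxin gene Prdx1 (0.38 and 0.31). No gene reached 0.2 in both libraries with Cx3cr1, Ccr2 or Dab2.

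Within each library cells were further split by a UMI of Ly6a (918 of 6101 control cells and 3868 of 5312 mutant cells had one), a surface antigen measured at 52.5 CPM in the control library and at 1193 CPM in the mutant one. Cx3cr1 was higher in cells with a Ly6a UMI in both (43.6 against 22.5 CPM in the control, 212 against 171 CPM in the mutant library), and so was Ccr2 (2.87 against 1.52 and 9.06 against 4.09 CPM). Mrc1 was lower in them in both (17.7 against 24.4 and 16.1 against 39.8 CPM). The C1q sum was higher in such cells in the control (1138 against 942 CPM) and lower in the mutant library (521 against 651 CPM). A split by an Arid1a UMI in the mutant library gave no difference beyond counting error for any of the 10 genes, all intervals of the log2 ratios spanning 0, although a UMI of a scarce gene separates cells poorly.

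Lists of related genes give the surroundings, counted over genes past the minimum mean beside the 5.65% and 1.13% of all genes. Of 7 other monocyte genes, 4 were higher in the mutant library by 2-fold or more and 0 lower, with a median log2 ratio of 1.04. They were the lectin gene Chil3 (8.25 to 61.4 CPM, 2.90), the Fc receptor gene Fcgr4 (18.5 to 45.0 CPM, 1.28) and the integrin genes Itgal (16.2 to 34.4 CPM, 1.08) and Itgam (1.04). Of these, Chil3, Fcgr4 and Itgal passed the minimum mean only through the mutant library, which favours calls of higher. Neutrophils also express Chil3 and the integrin genes, and neutrophil markers moved alike (S100a8 2.98, Camp 2.63). Without the neutrophil, stromal and class II gates, an alternative for the lists that was chosen after the data were seen, Chil3 was at 1.08 and 3.86 CPM and fell under the minimum mean, so that 3 of 6 other monocyte genes were higher and 0 lower, with a median of 0.44. Fcgr4 (1.28), Itgal (1.07) and Itgam (1.04) kept their ratios, and Fcgr4 and Itgal again passed the minimum mean only through the mutant library. Ly6c2, under the minimum mean, went from 2.77 to 22.9 CPM with these cells and from 1.27 to 7.85 CPM without them. Of 12 other macrophage genes, 4 were higher and 0 lower, with a median of 0.45: Apoe (103 to 976 CPM, 3.25), Fcgr1 (26.8 to 135 CPM, 2.33), Lgmn (129 to 544 CPM, 2.08) and Sirpa (1.26). Folr2, a folate receptor of resident macrophages, was at 89.98 and 45.2 CPM (-0.99), alongside C1q on the lower side. Other listed macrophage genes ranged from none to high levels, with Pf4 at 655 and 795 CPM, Stab1 at 141 and 228 CPM and Selenop at 34.1 and 32.7 CPM. Those named next are markers of resident macrophages with none to low levels, chosen after their values were seen. Timd4, Vsig4 and Clec4f had 0 UMIs in both libraries (which allows 3 in each), Lyve1 had 3 and 0, Cd163 had 32 and 15, and Spic had 300 and 194 UMIs, while Siglec1, also under the minimum mean, was at 5.35 and 30.6 CPM (2.52).

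Of 13 macrophage transcription factors 3 were higher and 0 lower, with a median of 0.48, namely the oxysterol receptor gene Nr1h3 (13.9 to 58.2 CPM, 2.07), Maf (47.6 to 144 CPM, 1.60) and Bhlhe41 (1.07), while Spi1, which encodes PU.1, was at 0.20. Nr1h3 and Bhlhe41 (18.0 CPM in the control) also passed the minimum mean only through the mutant library. Of 8 complement partners and receptors 1 was higher, C3 (63.1 to 157 CPM, 1.31), and 0 were lower, with a median of 0.60. The receptor gene C3ar1 was at 0.99, a value that passed 2-fold without the 3 gates (2 of 8 higher), and C1qbp, whose mitochondrial product binds C1q, at -0.81. Of 4 other scavenger receptors Cxcl16 (157 to 373 CPM, 1.25) and Scarb2 (1.08) were higher and 0 lower, with a median of 0.88. Of 3 chemokine ligands of the 2 receptors, Ccl7 was lower (212 to 93.1 CPM, -1.19) and 0 were higher, with a median of -0.48. Cx3cl1, the ligand of CX3CR1, had 23 and 34 UMIs.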

How the data were processed

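Per the file headers the authors made the deposited tables with Cell Ranger 6.1.0, and they hold untransformed UMI counts for each gene in each barcode. GRCm39 is the genome named in the submitters' processing notes, and no doublet filter or strand setting was stated. Counting removes PCR copies, and the counts read the 3′ end of transcripts only. Kept cells held 163618835 and 131469887 UMIs, which sets the counting error. From the counts, sums, CPM, exact intervals, thinning and Pearson r were computed in Python 3.11.15 with SciPy 1.17.1, and TMM factors with edgeR 4.0.16 as an alternative scaling. Ratios and intervals were checked on simulated counts. Doublets were kept, and removing 333 and 275 barcodes with the highest simulated-doublet scores was an alternative. The labels gave 1 library per group. All members were named, with up to 4 genes of each related list by the largest absolute log2 ratio among genes past a mean of 20 CPM. Beside them stand Ly6c2, Folr2, Pf4, Stab1, Selenop, Spi1, Timd4, Vsig4, Clec4f, Lyve1, Cd163, Spic, Siglec1 and Cx3cl1, chosen after their values were seen. Likeness was named where r reached 0.2 in both libraries. The members, lists, gates and the Ly6a split were chosen with earlier results of these data known. 1 listed scavenger receptor was not analysed here. Sequences came from GRCm39 with GENCODE M39.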

Additional observations from a re-analysis of the deposited data

Results flagged for a closer look

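For some members the effect ran in opposite directions in 2 sets of cells, with both counting intervals clear of 0. None of these differences was tested. C1qa, C1qb, C1qc and Mrc1 were higher in the mutant library in cells of the OC gate only (log2 ratios 0.48, 0.46, 1.04 and 2.03) and lower in cells of neither gate (-1.16, -1.06, -0.83 and -0.14), differences of 1.65, 1.52, 1.87 and 2.17. With other gates or depths the ratios of these genes in the OC gate only went as low as -2.15, -0.35, -0.17 and -0.63. Marco was lower in the mutant library in cells of both gates (-2.0) and higher in cells of neither (0.11), a difference of -2.11, with 110 of 198 control UMIs in 1 cell. The Marco ratio in neither gate was -0.47 at 10000 UMIs per cell. For Mrc1, 23 of the 62 mutant UMIs in the OC gate only came from 1 cell.

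Cycling-gate cells held less C1qa than cells of neither gate in the control (-0.34) and more in the mutant library (0.24), a difference of 0.59. Msr1 did so by -0.15 and 0.032, a difference of 0.18, and its mutant value was -0.0062 at 2000 UMIs. Cells with a Ly6a UMI held more C1qa, C1qb, C1qc, Adgre1 and Msr1 than cells without in the control (0.33, 0.25, 0.27, 0.15 and 0.12) and less in the mutant library (-0.28, -0.30, -0.39, -0.087 and -0.13). The differences were -0.61, -0.55, -0.66, -0.23 and -0.25.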

How the results depend on the processing

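Over all cells each member kept its direction under 7 other scalings or cell sets, with Cx3cr1 at 2.87 to 2.99, Adgre1 at 1.75 to 1.88, C1qb at -0.98 to -0.86 and Ccr2, the widest, at 2.02 to 2.65. At a fold of 1.5, 3 members were lower (C1qa, C1qb and C1qc), beside 5.61% of all genes. On the higher side Msr1 joined Cx3cr1 and Adgre1 at that fold, and the share of all genes is not given here. Msr1 also passed 2-fold without the neutrophil, stromal and class II gates (1.01). The 5 counts of members higher and both counts of members lower in the cycling gate stayed within 1.5 times under every alternative run. Counts of members lower in the OC gate only moved with the gate. In the mutant library they were 7 at 2000 UMIs per cell (2.46% of all genes), 1 with gates at 2 UMIs (0.0978%), 8 with gates at 5 UMIs (3.40%), 1 with gates on unthinned counts (0.159%) and 8 without Acp5 (3.03%), and in the control library 4 with gates on unthinned counts (0.44%). For single genes with at least 2-fold ratios, mutant over control in the OC gate only, signs turned at 2000 UMIs for C1qc (-0.17) and Marco (-0.36), on unthinned counts for C1qc (-0.035) and Marco (-0.99), and without Acp5 for Mrc1 (-0.63) and Marco (-0.30). C1qa and C1qb, under 2-fold there, also turned, to -2.15 at 2000 UMIs and to -0.35 with gates at 5 UMIs. In both gates Marco turned to 1.98 at 10000 UMIs, 1.08 with gates at 2 UMIs and 0.60 on unthinned counts. In neither gate Marco also changed sign (-0.47 to 0.34). Ccr2 in the OC gate of the mutant library turned to 0.19 at 10000 UMIs. The alternatives change which cells are gated, and the cause of each change was not tested. Shares of cells with a UMI depend on depth by construction, and 59 of 60 moved at other depths. With 1 library per genotype no spread between cultures can be given, and scarce genes such as Ccr2 rest on few UMIs in the OC gate.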
